A study of Homo sapiens with 6 samples.

Results

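The 26S proteasome degrades proteins that carry ubiquitin chains. Its 20S core is a barrel of alpha and beta rings, in which PSMB5, PSMB6 and PSMB7 carry the constitutive catalytic sites, and its 19S regulator binds, unfolds and feeds the substrate. In cells exposed to interferon-gamma, and in many blood cells without it, PSMB8, PSMB9 and PSMB10 replace the constitutive catalytic subunits to form the immunoproteasome, which supplies peptides for display on MHC class I molecules. The genes described here were all those whose symbol begins with PSMA, PSMB, PSMC, PSMD, PSME, PSMF or PSMG directly followed by a digit, which gave 50 of the 20802 genes measured. They comprised 14 core subunits, 3 immunoproteasome subunits, 2 tissue-specific core subunits (PSMA8 of testis and PSMB11 of thymus), 22 regulator genes and 7 assembly factors. PSMC3IP, a meiotic recombination factor named after its binding to PSMC3, and PSMD6-AS2, an antisense RNA, also matched the rule by name but are not proteasome genes, which leaves 48 proteasome genes.

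Transcript levels were measured in K562, a human erythroleukemic cell line derived from chronic myeloid leukemia in blast crisis. NPM KD cells (3 libraries) were infected with a pLKO.1-puro lentivirus expressing shNPM300, a short hairpin RNA against NPM1, and shSc cells (3 libraries) with the same vector carrying a scrambled, non-target hairpin. Both kinds of cell were selected with puromycin, and the paper refers to such selected cells as clones. A single hairpin against NPM1 was used, so an effect of NPM loss and an effect of this hairpin or of the selected cells cannot be told apart. Nothing in the sources says that the libraries of a group came from separate cultures, so the spread behind each p-value is that of these libraries and may be technical.

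AmpliSeq amplifies one short stretch of each transcript and counts its reads, and values are given as RPM, the reads of a gene scaled to a fixed library total. Because each gene has its own primers and amplicon, RPM can be compared between libraries for one gene, but not between genes. Libraries held 11726763 to 18981902 reads in NPM KD cells and 8842344 to 14187046 in shSc cells. The NPM1 transcript was at 1302, 1168 and 655 RPM in the NPM KD libraries, against 3856, 2968 and 3146 RPM in the shSc libraries, with no overlap (log2 fold change -1.76, adjusted p = 0.158 from limma). Replicate 3 of shSc stood apart: across tested genes its log2 level correlated at 0.839 to 0.879 with the other libraries, which correlated among themselves at 0.922 to 0.972, and it had reads for 16619 genes against 13893 to 14600. The study did not retain it, so tests set the 3 NPM KD libraries against shSc replicates 1 and 2, and replicate 3 is given beside each value. As a check of the cell type, the 9 erythroid markers, among them the globin genes that K562 expresses, summed to 8000 to 19139 RPM in NPM KD libraries and to 7913 to 16347 RPM in shSc libraries, while the leukocyte antigen PTPRC was at most 0.256 RPM.

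No proteasome gene passed the main test between NPM KD and shSc cells. Of the 50 members, 46 reached 1 RPM in 2 or more of the 5 retained libraries and were tested with limma on log2(RPM + 0.5), a scale that understates changes of low values, together with all 11554 genes that met this minimum. None of the 46 reached an adjusted p of 0.05, against 15 of all tested genes (0.13%). None was called by edgeR's quasi-likelihood test on reads recovered from the RPM values (0.0952% of all tested genes) or by DESeq2 on the same reads (1.64%). A limma fit with a term for the replicate number (a replicate block) did call members. Over the same 5 libraries it called 7 of 46, beside 1698 of all 11554 genes, and over all 6 libraries it called 0. At an unadjusted p under 0.05, limma gave 1 of the 46 members, PSMD6, where 7.14% of all tested genes lay. Adjusted p-values of the members were 0.666 to 0.993. In the main fit no member had a log2 fold change of 1 or more in size, a size that 5.17% of all tested genes reached. PSMB9 was nearest, at -0.995. Its value was -1.02 with 0.1 RPM added in place of 0.5, -1.15 with edgeR and -1.16 with DESeq2. Of the 44 proteasome genes tested, 31 had a 95% interval of the log2 fold change that lay within 1 on either side of 0, whereas for the other 13 a change of 2-fold lay inside the interval.

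**Figure D1:**
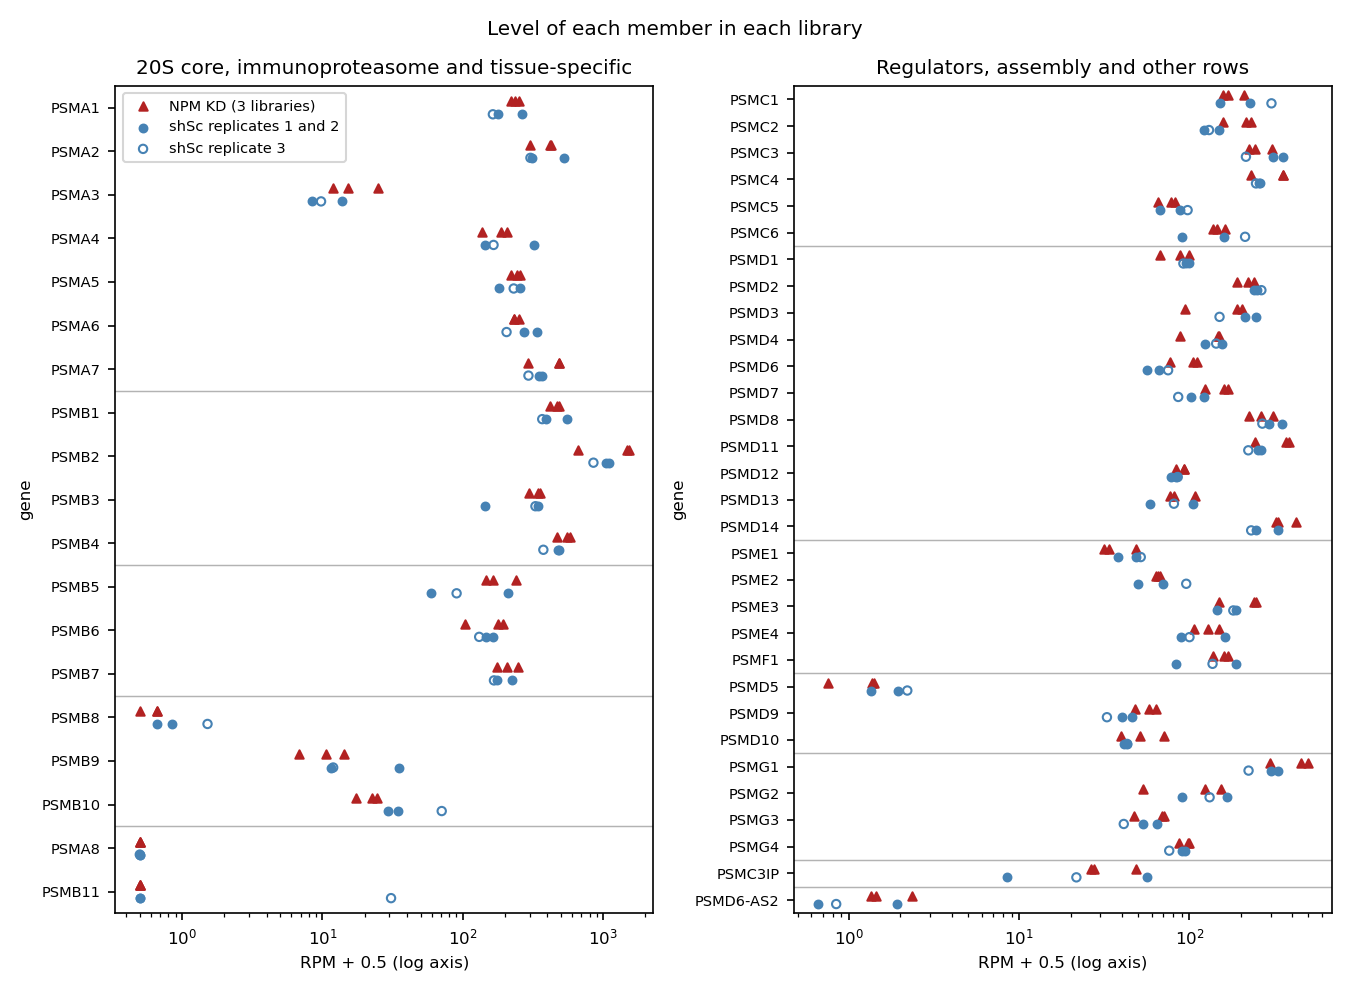
RPM plus 0.5 of each of the 50 members in each library on a log axis, with NPM KD libraries as red triangles, shSc replicates 1 and 2 as filled blue points and shSc replicate 3 as open points; grey lines part the subclasses. The groups lay close together for most subunits, PSMB10 was lower in all 3 NPM KD libraries than in any shSc library, and PSMB11 was seen only in shSc replicate 3, at 30.3 RPM.

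Over the 46 tested members the median log2 fold change was 0.14, with 29 positive and 17 negative. Of all 11554 tested genes, 5871 had a positive and 5683 a negative fold change. The median log2 fold change was 0.11 over the 14 core subunits, 0.15 over the 22 regulator genes and 0.19 over the 6 assembly factors tested, beside 0.01 over all tested genes. The 2 immunoproteasome subunits tested had a median of -0.79. The median size of change, sign aside, was 0.27 for the proteasome genes and 0.27 for all tested genes. More reads stood behind the members than behind most tested genes (median level 160 RPM, against 26.4 RPM over all), which bears on the precision of their values.

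Replicates of a group could also be compared with the other group by whether their ranges overlapped. In 5 members (PSMC2, PSMD6, PSMD7, PSMD12 and PSMD9) each NPM KD library was above shSc replicates 1 and 2, and in 5 others (PSMA6, PSMC3, PSMD2, PSMD3 and PSMB10) each was below. That is 10.9% of the members in each direction, beside 12.3% of all tested genes higher and 10.4% lower, so the shares were near the background. With shSc replicate 3 included, PSMC2, PSMD6, PSMD7 and PSMD9 were still higher in every NPM KD library (9.55% of all tested genes), and PSMB10 and PSMD2 still lower (4.35%).

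**Figure D2:**
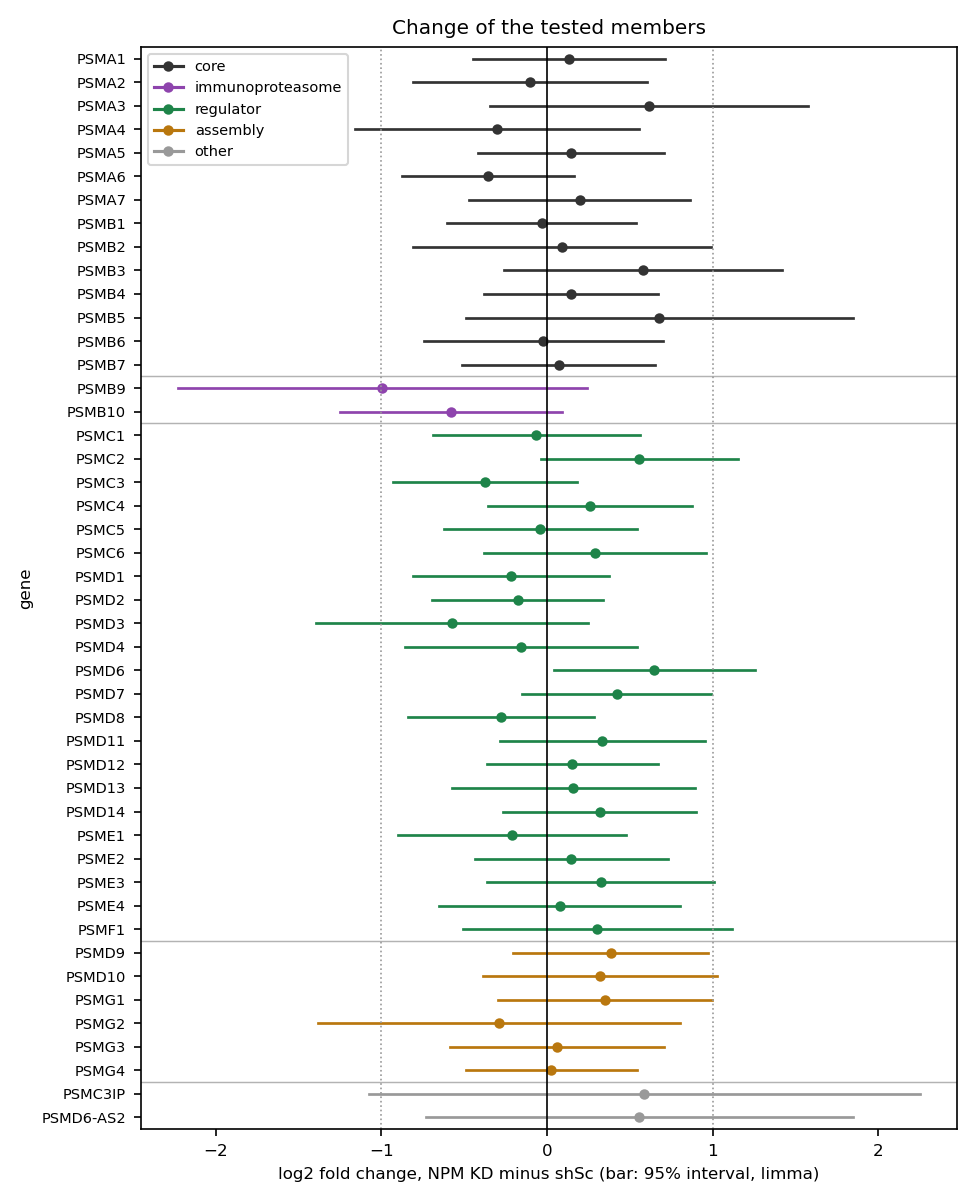
Log2 fold change, NPM KD minus shSc, of the 46 tested members with its 95% interval from limma, coloured by class; dotted lines mark a 2-fold change either way. The interval of PSMD6 alone did not include 0, and no member passed the adjusted threshold.

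The catalytic subunits of the immunoproteasome were the members with the lowest fold changes, though neither passed the test. Their genes are spread over 2 chromosomes: PSMB8 (chr6:32808494-32812456, minus strand, GRCh37) and PSMB9 (chr6:32811913-32827628, plus strand) lie in the MHC region beside TAP1 (chr6:32812986-32821593, minus strand), which encodes a subunit of the peptide transporter that carries proteasome products into the endoplasmic reticulum, and PSMB10 lies at chr16:67968409-67970767 (minus strand). The annotated extent of PSMB9 overlaps those of PSMB8 and TAP1. The sources used here do not state whether counting used strand, so reads of overlapping stretches could not be assigned with certainty. The windows around the start sites of the 3 immunoproteasome genes are printed with that of TAP1, the neighbour of PSMB9, because the values of these genes are described next. They are RefSeq sequences of GRCh38.p14, 250 bases before to 50 bases after the start, and capitals mark a match to the core of an antioxidant response element (TGACNNNGC) in PSMB9 and to a core of interferon response elements (GAAANNGAA) in TAP1 and PSMB10, each searched on both strands. PSMB8 held neither.
PSMB8 (chr6:32844630-32844929, minus strand): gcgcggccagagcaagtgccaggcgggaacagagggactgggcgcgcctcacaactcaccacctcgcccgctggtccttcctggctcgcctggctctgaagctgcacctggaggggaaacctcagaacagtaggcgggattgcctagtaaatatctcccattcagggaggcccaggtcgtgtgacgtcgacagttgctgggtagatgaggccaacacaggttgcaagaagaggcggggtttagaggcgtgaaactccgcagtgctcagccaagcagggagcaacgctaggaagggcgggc
PSMB9 (chr6:32853942-32854241, plus strand): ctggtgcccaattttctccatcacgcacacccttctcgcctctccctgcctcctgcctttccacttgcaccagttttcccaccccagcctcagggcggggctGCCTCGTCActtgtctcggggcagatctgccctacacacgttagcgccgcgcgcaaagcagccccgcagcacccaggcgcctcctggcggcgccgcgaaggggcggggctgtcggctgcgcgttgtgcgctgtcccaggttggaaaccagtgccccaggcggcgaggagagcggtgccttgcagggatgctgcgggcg
TAP1 (chr6:32853655-32853954, minus strand): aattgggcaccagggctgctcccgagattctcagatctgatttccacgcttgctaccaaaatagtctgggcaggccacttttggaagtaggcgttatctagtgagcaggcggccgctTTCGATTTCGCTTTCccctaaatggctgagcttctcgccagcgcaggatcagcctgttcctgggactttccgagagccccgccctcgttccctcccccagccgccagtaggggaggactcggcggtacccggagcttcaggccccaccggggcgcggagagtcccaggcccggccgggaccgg
PSMB10 (chr16:67936801-67937100, minus strand): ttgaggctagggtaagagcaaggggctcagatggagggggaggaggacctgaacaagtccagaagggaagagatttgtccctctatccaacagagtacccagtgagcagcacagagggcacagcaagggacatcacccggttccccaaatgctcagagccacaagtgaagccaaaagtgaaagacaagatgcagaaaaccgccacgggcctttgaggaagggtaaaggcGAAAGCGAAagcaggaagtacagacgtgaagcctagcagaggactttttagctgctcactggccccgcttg

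In these sequences the start sites of PSMB9 and TAP1 were 488 bases apart, on opposite strands, and the windows shared 13 bases. The run in capitals of TAP1 holds 2 overlapping matches on the opposite strand, which begin 133 and 127 bases before the start, the match of PSMB10 begins 21 bases before the start, and that of PSMB9, on the opposite strand, 148 bases before it. The core GAAANNGAA was found in 8.29% of 27305 promoter windows of the same length, in 6.2% of those of tested genes, in 1 of the 3 immunoproteasome windows and in 6 of 37 matched windows of core, regulator and assembly genes (16.2%). TGACNNNGC, a form of the sequence bound by NRF1 and NRF2, was found in 13.6% of all windows, in 15.4% of those of tested genes and in 12 of the 37 (32.4%), and TTCNNNGAA, the core of the gamma-activated site of interferon-gamma response genes, in 7.88% of all windows and 4 of those 37. Of the 50 members, 44 had a window in the table. A match is a description of the letters only.

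PSMB9 (LMP2) replaces PSMB6 in the immunoproteasome. It was at 10.0, 13.8 and 6.27 RPM in the NPM KD libraries, against 34.5 and 11.0 RPM in shSc replicates 1 and 2 and 11.4 RPM in shSc replicate 3. Replicate 1 of shSc was the high library, and the groups overlapped. The log2 fold change was -0.995 (standard error 0.53, 95% interval -2.23 to 0.24, adjusted p = 0.787 from limma), and without shSc replicate 1 it was -0.19. The value thus rested on that library.

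TAP1, the neighbour of PSMB9, was at 13.0, 9.81 and 13.0 RPM in the NPM KD libraries, against 32.6 and 14.4 RPM in shSc replicates 1 and 2 and 11.9 RPM in replicate 3. The high library was again shSc replicate 1. Its log2 fold change of -0.85 (95% interval -1.77 to 0.08) had an adjusted p of 0.747 from limma, and each NPM KD library was below both shSc replicates that entered the test, whereas replicate 3 lay within the NPM KD range. The quotient of PSMB9 over TAP1 was 0.768, 1.41 and 0.482 in NPM KD libraries and 1.06, 0.762 and 0.962 in shSc libraries, so shSc replicate 1, in which both were high, was not apart from the others in it. The aminopeptidase ERAP1 was also highest in this library (33.6, 21.0 and 46.3 RPM in NPM KD, against 77.1, 15.5 and 19.5 RPM in shSc). So was the other transporter subunit TAP2 (31.6, 18.5 and 38.1 RPM in NPM KD, against 50.8, 25.8 and 23.7 RPM in shSc). The MHC class I light chain gene B2M was highest there too, at 894 RPM, beside 857 RPM in NPM KD replicate 3. The tapasin gene TAPBP was lowest there, at 1.69 RPM. Of the 46 tested members, 10 were highest in shSc replicate 1.

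PSMB10 (MECL-1) replaces PSMB7. It was at 24.1, 16.9 and 22.1 RPM in the NPM KD libraries, against 28.9 and 33.8 RPM in shSc replicates 1 and 2 and 70.2 RPM in replicate 3. Here every NPM KD library was below every shSc library. NPM KD libraries averaged 21.0 ± 3.71 RPM (SD, n = 3) and shSc replicates 1 and 2 averaged 31.4 ± 3.47 RPM (SD, n = 2), with a log2 fold change of -0.58 (standard error 0.29, 95% interval -1.25 to 0.09, adjusted p = 0.764 from limma). Over the alternative settings it was -0.96 to -0.43.

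PSMB8 (LMP7), which replaces PSMB5, was near the limit of detection. It had 2, 0 and 3 reads in the NPM KD libraries (0.168, 0 and 0.158 RPM), against 5 and 2 reads in shSc replicates 1 and 2 (0.352 and 0.16 RPM) and 9 reads in replicate 3 (1.02 RPM). A count of 0 allows up to 0.158 to 0.339 RPM across the libraries, taking 3 reads as the floor, and this covers counting error only. A difference was not detectable at this depth, and PSMB8 did not enter the test. Whether its amplicon captures the transcript well was not tested.

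Summed over the 3 genes, immunoproteasome RPM was 34.2, 30.7 and 28.5 in NPM KD libraries, against 63.7 and 45.0 in shSc replicates 1 and 2 and 82.7 in replicate 3. The sums did not overlap, but of the 3 genes only PSMB10 was without overlap by itself. PSMB9 gave 34.5 RPM of the sum in shSc replicate 1, and PSMB10 gave 70.2 RPM of that in replicate 3. The sums are not comparable in size with those of other classes, which rest on other amplicons. Markers of other blood cells differed between the libraries too. The 7 monocyte and macrophage markers summed to 128 to 157 RPM in NPM KD libraries, against 193 to 196 RPM in shSc replicates 1 and 2 and 329 RPM in replicate 3. LYZ and CD68 made up most of this sum in the tested libraries, CD163 was at 0 in those 5 and CD14 at most 0.896 RPM. The integrin gene ITGAM was at 0.841, 0.853 and 5.06 RPM in NPM KD libraries, against 16.6, 11.3 and 16.9 RPM in shSc libraries (log2 fold change -2.72, adjusted p = 0.265 from limma). The 6 B cell markers summed to 0.252 to 0.633 RPM in NPM KD libraries, against 0.399 to 0.986 RPM in shSc replicates 1 and 2 and 81.5 RPM in replicate 3, with MS4A1 and PAX5 at 0 in the 5. The 8 T and NK cell markers summed to 19.4 to 93.3 RPM in NPM KD libraries, against 56.9 and 88.1 RPM in shSc replicates 1 and 2 and 158 RPM in replicate 3, with LCK at 0 in the 5. Of these markers CD7 was at 0.168, 0.171 and 3.0 RPM in NPM KD libraries, against 5.01, 34.6 and 0.905 RPM in shSc libraries (log2 fold change -3.58, adjusted p = 0.337 from limma). CD3G was at 0.505, 0.597 and 1.11 RPM in NPM KD libraries, against 2.12, 2.15 and 0.792 RPM in shSc libraries (log2 fold change -1.12, adjusted p = 0.614), while CD3D, the most abundant of the list, overlapped between the groups. The part of these differences in the immunoproteasome values was not tested. All libraries were made from the K562 line. In such bulk samples, fewer cells with a marker transcript and less of it per cell cannot be told apart.

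**Figure D3:**
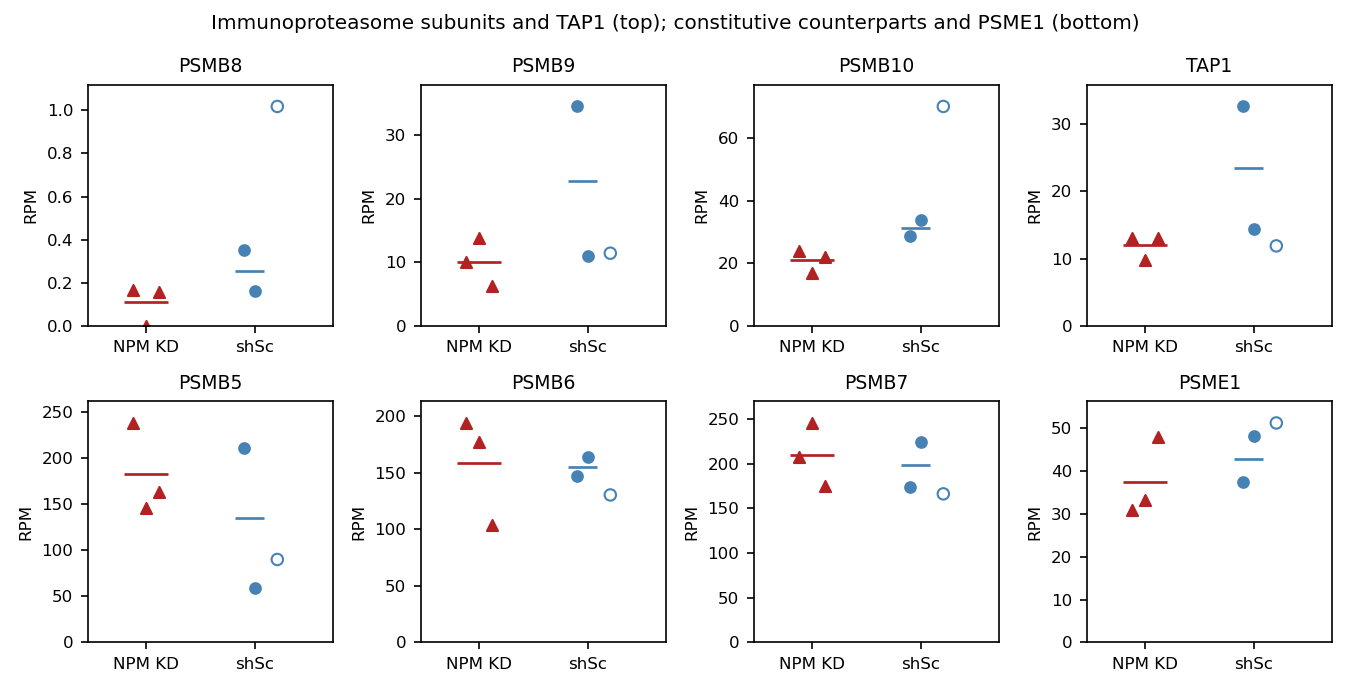
RPM per library, NPM KD left and shSc right, of the immunoproteasome subunits PSMB8, PSMB9 and PSMB10 and the transporter gene TAP1 (top), and of the constitutive subunits PSMB5, PSMB6 and PSMB7 and the activator PSME1 (bottom); open points are shSc replicate 3 and horizontal lines are means of the tested libraries. PSMB9 and TAP1 shared their highest library, shSc replicate 1, whereas all NPM KD points of PSMB10 lay below all shSc points.

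The constitutive counterparts did not mirror this order. PSMB5, the chymotrypsin-like subunit and main target of bortezomib, had the highest fold change among the proteasome genes, with 238, 146 and 163 RPM in the NPM KD libraries, against 210 and 58.6 RPM in shSc replicates 1 and 2 and 89.8 RPM in replicate 3. The shSc libraries lay far apart, and NPM KD replicates 2 and 3 fell between shSc replicates 1 and 2 (log2 fold change 0.68, standard error 0.50, 95% interval -0.49 to 1.85, adjusted p = 0.852 from limma). Without shSc replicate 2 the value was -0.24, so that library set the direction. PSMB6, the caspase-like subunit, was at 194, 177 and 103 RPM in NPM KD and 147, 164 and 130 RPM in shSc (log2 fold change -0.02, 95% interval -0.74 to 0.70). PSMB7, the trypsin-like subunit, was at 207, 245 and 175 RPM in NPM KD and 174, 224 and 166 RPM in shSc (log2 fold change 0.07, 95% interval -0.51 to 0.65). Neither interval reached a 2-fold change.

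Expressed as a quotient of amplicons within a library, PSMB10 over PSMB7 was 0.116, 0.0688 and 0.126 in NPM KD libraries, against 0.166 and 0.151 in shSc replicates 1 and 2 and 0.423 in replicate 3, with no overlap. PSMB9 over PSMB6 was 0.0517, 0.0779 and 0.0607 in NPM KD libraries, against 0.235 and 0.0673 in shSc replicates 1 and 2 and 0.0877 in replicate 3, with overlap. These quotients are read across libraries only and do not give the stoichiometry of the subunits.

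Among the alpha subunits, which form the outer rings and gate the core, 4 of 7 fold changes were positive and 3 negative. The highest was that of PSMA3, at 14.6, 24.3 and 11.5 RPM in NPM KD libraries, against 7.90 and 13.3 RPM in shSc replicates 1 and 2 and 9.27 RPM in replicate 3 (log2 fold change 0.62, standard error 0.41, adjusted p = 0.831 from limma). That value was 0.26 without shSc replicate 1, 0.32 without NPM KD replicate 2 and 0.98 without shSc replicate 2. The lowest was PSMA6, at 229, 229 and 251 RPM in NPM KD libraries, against 338 and 271 RPM in shSc replicates 1 and 2. For PSMA6 the NPM KD libraries were below both (log2 fold change -0.35, standard error 0.22, adjusted p = 0.816), but shSc replicate 3, at 204 RPM, was below all 3 of them.

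Of the non-catalytic beta subunits, PSMB3 had the highest fold change. It was at 354, 345 and 294 RPM in NPM KD libraries, against 143 and 341 RPM in shSc replicates 1 and 2 and 329 RPM in replicate 3. Only shSc replicate 1 was low (log2 fold change 0.58, standard error 0.36, adjusted p = 0.809 from limma), and without it the value was -0.05. PSMB1 was at 416, 482 and 470 RPM in NPM KD libraries and 392, 553 and 367 RPM in shSc libraries, a log2 fold change of -0.03 (95% interval -0.60 to 0.54). The core as a sum was at 5327, 5110 and 3951 RPM in NPM KD libraries, against 4631 and 4399 RPM in shSc replicates 1 and 2 and 3675 RPM in replicate 3. The NPM KD sums lay on both sides of those of shSc replicates 1 and 2 and above that of replicate 3, and PSMB2 alone gave 1479, 1523 and 659 RPM of them in NPM KD, against 1095, 1051 and 851 RPM in shSc.

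The 19S regulator had the member with the smallest p. PSMD6 (RPN7), a scaffold subunit of the lid, was at 110, 104 and 76.2 RPM in NPM KD libraries, against 66.0 and 55.8 RPM in shSc replicates 1 and 2 and 74.4 RPM in replicate 3. Every NPM KD library was above every shSc library, with NPM KD replicate 3 and shSc replicate 3 the nearest pair. NPM KD libraries averaged 96.6 ± 17.9 RPM (SD, n = 3) and shSc replicates 1 and 2 averaged 60.9 ± 7.18 RPM (SD, n = 2), and the log2 fold change was 0.65 (standard error 0.26, 95% interval 0.04 to 1.25, adjusted p = 0.666 from limma). Over alternative settings it was 0.53 to 0.81. PSMD6 lies at chr3:63996226-64009686 (minus strand, GRCh37) and overlaps the antisense gene PSMD6-AS2 (chr3:63989698-63997824, plus strand), which was at 0.841, 0.938 and 1.84 RPM in NPM KD libraries, against 1.41 and 0.16 RPM in shSc replicates 1 and 2 and 0.339 RPM in replicate 3. At that level the antisense RNA was measured by 2 to 35 reads a library, and without stated strand its reads and those of PSMD6 cannot be told apart where the genes overlap.

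PSMC2 (RPT1), an ATPase of the ring that unfolds substrates, was at 229, 215 and 158 RPM in NPM KD libraries, against 149 and 121 RPM in shSc replicates 1 and 2 and 130 RPM in replicate 3. The NPM KD libraries were all higher (log2 fold change 0.56, standard error 0.26, 95% interval -0.04 to 1.16, adjusted p = 0.738 from limma). The lowest ATPase was PSMC3 (RPT5), at 307, 223 and 242 RPM in NPM KD libraries, against 354 and 309 RPM in shSc replicates 1 and 2. Its fold change was -0.37 (standard error 0.24, adjusted p = 0.820), and shSc replicate 3, at 214 RPM, was below the NPM KD libraries. The 6 ATPases of the ring split evenly, 3 with positive and 3 with negative fold changes.

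The lid and base subunits of the 19S divided as well, with 6 positive and 5 negative fold changes among 11. PSMD3 (RPN3), a lid subunit, had the lowest, with 189, 94.2 and 202 RPM in NPM KD libraries, against 247 and 211 RPM in shSc replicates 1 and 2 and 150 RPM in replicate 3. Replicate 2 of NPM KD was the low library (log2 fold change -0.57, standard error 0.35, adjusted p = 0.804 from limma), and without it the value was -0.22. PSMD2, PSMD7 and PSMD12 were picked out after their values were seen, because their groups did not overlap. PSMD7 (RPN8), the partner of the deubiquitinase PSMD14, was at 158, 123 and 169 RPM in NPM KD libraries, against 121, 102 and 85.4 RPM in shSc libraries, with a log2 fold change of 0.42 (95% interval -0.15 to 0.99). PSMD14 (RPN11) itself, which removes ubiquitin from the substrate, was at 422, 321 and 329 RPM in NPM KD libraries, against 329, 246 and 230 RPM in shSc libraries (log2 fold change 0.32). The log2 fold changes of PSMD2 (RPN1), which binds ubiquitin and its shuttles, and of PSMD12 (RPN5) were -0.18 and 0.15, each smaller than its standard error of 0.22.

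Summed over its 22 genes, the regulator class was at 4129, 3585 and 3493 RPM in NPM KD libraries, against 3650, 3452 and 3457 RPM in shSc libraries. Replicate 1 of NPM KD had the highest sum, and shSc replicate 1 lay within the NPM KD range. All 48 proteasome genes together made up 10307, 9577 and 8173 RPM in NPM KD libraries, against 8984, 8618 and 7790 RPM in shSc libraries, so NPM KD replicate 3 lay within the shSc range.

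**Figure D4:**
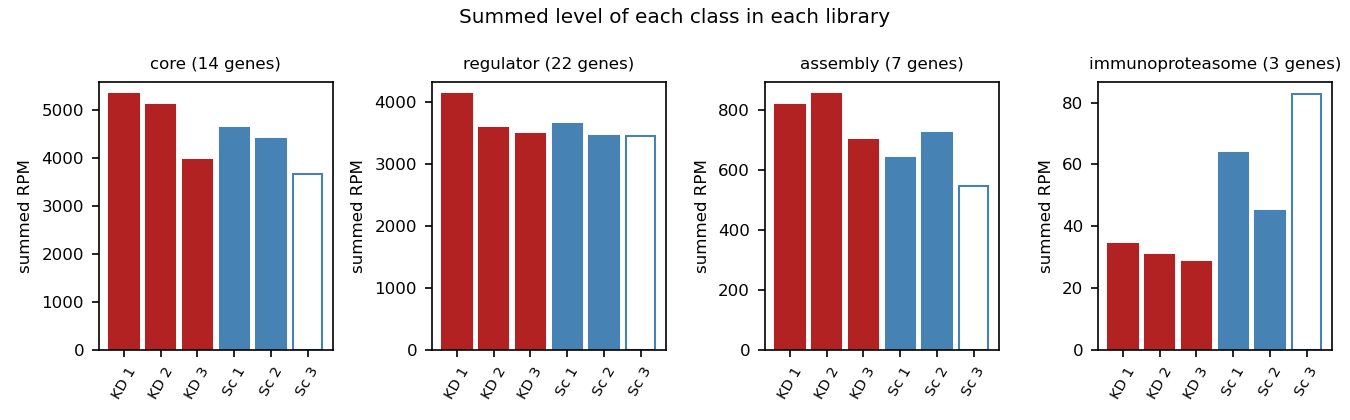
Summed RPM of the core (14 genes), regulator (22), assembly (7) and immunoproteasome (3) classes in each library, with NPM KD replicates (KD 1 to 3) in red and shSc replicates (Sc 1 to 3) in blue, replicate 3 open; axes start at 0 and differ between panels. The immunoproteasome sums were 28.5 to 34.2 RPM in NPM KD libraries and 45.0 to 82.7 RPM in shSc libraries, while the core and regulator sums overlapped. Of the immunoproteasome genes only PSMB10 was without overlap by itself.

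Activators bind the ends of the core in place of the 19S complex. PSME1 and PSME2 encode the subunits of PA28 alpha-beta, which interferon-gamma raises along with the immunoproteasome. PSME1 was at 30.8, 33.3 and 47.9 RPM in NPM KD libraries, against 37.4, 48.2 and 51.2 RPM in shSc libraries (log2 fold change -0.21, 95% interval -0.90 to 0.48), and PSME2 at 64.6, 66.9 and 62.8 RPM in NPM KD libraries, against 69.0, 49.4 and 95.2 RPM in shSc libraries (log2 fold change 0.15, 95% interval -0.43 to 0.73). Both overlapped between groups. PSME3, the nuclear PA28 gamma, was at 240, 246 and 148 RPM in NPM KD libraries, against 145, 186 and 181 RPM in shSc libraries (log2 fold change 0.33, 95% interval -0.36 to 1.01). PSME4, the activator PA200, was at 129, 105 and 148 RPM in NPM KD libraries, against 162, 88.7 and 99.5 RPM in shSc libraries (log2 fold change 0.08, 95% interval -0.65 to 0.80). PSMF1, the inhibitor PI31, was at 137, 168 and 160 RPM in NPM KD libraries, against 83.2, 188 and 136 RPM in shSc libraries (log2 fold change 0.30, 95% interval -0.51 to 1.12). For none of these 5 was the difference larger than the spread between libraries.

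Assembly factors are chaperones that leave the finished particle. PSMD9 (p27), PSMD10 (gankyrin) and PSMD5 (S5b) guide assembly of the 19S base. PSMD9 was at 63.2, 57.5 and 47.3 RPM in NPM KD libraries, against 45.3, 39.8 and 32.2 RPM in shSc libraries. Every NPM KD library was above every shSc library (log2 fold change 0.38, standard error 0.25, 95% interval -0.21 to 0.97, adjusted p = 0.826 from limma). PSMD10 was at 38.9, 50.8 and 70.6 RPM in NPM KD libraries, against 42.4, 40.5 and 42.5 RPM in shSc libraries (log2 fold change 0.32, 95% interval -0.39 to 1.03), and its NPM KD libraries lay on both sides of the shSc values. PSMD5 was under the minimum, with 3, 10 and 17 reads in NPM KD libraries, against 12, 18 and 15 reads in shSc libraries (0.252, 0.853 and 0.896 RPM, against 0.846, 1.44 and 1.70 RPM), and was not tested.

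The PSMG genes encode the chaperones of the 20S core. PSMG1 (PAC1) was at 494, 453 and 297 RPM in NPM KD libraries, against 302, 333 and 222 RPM in shSc libraries (log2 fold change 0.35, standard error 0.28, adjusted p = 0.859 from limma). PSMG2 (PAC2), its dimer partner, was at 53.1, 123 and 152 RPM in NPM KD libraries, against 90.3, 165 and 131 RPM in shSc libraries (log2 fold change -0.29, standard error 0.47, adjusted p = 0.935). Both overlapped between the groups, and their libraries were not in the same order. PSMG3 and PSMG4, which form a second pair, had log2 fold changes of 0.06 and 0.03. The assembly class summed to 816, 852 and 701 RPM in NPM KD libraries, against 639, 722 and 545 RPM in shSc libraries, with NPM KD replicate 3 below shSc replicate 2.

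The tissue-specific core subunits were absent from the libraries tested. PSMA8, the testis alpha subunit, had no read in any of the 6 libraries, which allows up to 0.158 to 0.339 RPM. PSMB11, the thymus subunit of the cortical epithelium, had no read in the 5 libraries tested and 268 reads (30.3 RPM) in shSc replicate 3. PSMB11 has 1 exon in the annotation (chr14:23511421-23513269, plus strand, GRCh37). The reason for its reads in that library was not tested. PSMC3IP, outside the proteasome, had the largest standard error of the tested members, at 48.2, 27.03 and 25.9 RPM in NPM KD libraries, against 55.8, 7.98 and 21.1 RPM in shSc libraries (log2 fold change 0.59, standard error 0.72).

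Pseudogenes exist for some members. GENCODE lists 44 pseudogenes named after 17 of the members, 13 of them after PSMC1 and 6 after PSME2, with 4 after PSMA6 and 2 after PSMC2. Reads of such pseudogenes could be assigned to the parent gene or lost, so the values of these 17 genes may be less certain than those of the others. Whether a pseudogene shares the amplicon of its parent was not tested.

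Among the 46 tested members, shSc replicate 3 was the lowest of the 6 libraries for 13 and the highest for 7, and NPM KD replicate 1 was the highest for 15. For 21 of all 50 members it was below all NPM KD libraries, for 10 above all, and for 19 within their range. The 10 included PSMB8, PSMB10 and PSMB11, along with PSME1 and PSME2.

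Genes that work beside the proteasome were read from the same test, in lists that were chosen with earlier results of these data known. None of the 19 partners passed it. They included POMP, the maturation factor of the core (19.1, 22.0 and 17.9 RPM in NPM KD libraries, against 11.7, 14.8 and 13.6 RPM in shSc libraries, log2 fold change 0.55, adjusted p = 0.785 from limma), and the shuttle receptor UBQLN1 (log2 fold change 0.50), in both of which every NPM KD library was higher. The lowest were UCHL5, a deubiquitinase of the 19S (-0.55), and UBLCP1, a phosphatase that acts on the proteasome (-0.37, with a standard error of 1.07). The list's median was 0.17. In 4 of the 19 the NPM KD libraries were all higher than shSc replicates 1 and 2, and in 0 all lower (21.1% and 0%, beside 12.3% and 10.4% of all tested genes).

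NRF1, encoded by NFE2L1, is the transcription factor that raises proteasome genes when proteasome activity falls, after processing by VCP, NGLY1 and the protease DDI2. None of the 12 genes tested on this route passed. NFE2L1 was at 70.0, 81.7 and 92.9 RPM in NPM KD libraries, against 81.3, 156 and 75.3 RPM in shSc libraries. Its log2 fold change of -0.47 (95% interval -1.21 to 0.27, adjusted p = 0.836 from limma) was the lowest of the list, with shSc replicate 2 as the high library. DDI2 followed at -0.18. The highest were MAFK, a small MAF partner (0.54), and UFD1L, a VCP cofactor (0.50, higher in every NPM KD library). The list's median was 0.12.

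Of the 5 ubiquitin and activation genes none passed, and all fold changes were negative, with a median of -0.15. UBA1, the main activating enzyme, had -0.49 (244, 230 and 288 RPM in NPM KD libraries, against 280, 451 and 289 RPM in shSc libraries) and RPS27A, which encodes a ubiquitin fusion, -0.20. UBB, a polyubiquitin gene, had -0.07.

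MHC class I peptide supply could be followed only in part. Of its 9 genes, 5 were tested and none passed, with a median of -0.17. The heavy chain genes HLA-B and HLA-C were at most 0.211 RPM in the 5 libraries tested, and HLA-C was at 17.2 RPM in shSc replicate 3. TAP1 (-0.85) and TAP2 (-0.36) were the lowest. TAPBP, which encodes tapasin, had 0.21 and ERAP1 -0.12. B2M, the light chain, was at 647, 577 and 857 RPM in NPM KD libraries, against 894, 664 and 550 RPM in shSc libraries.

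In the interferon list, 9 of 12 genes were tested and none passed, with a median of -0.14. IRF9, a part of the factor that type I interferons activate, had the highest log2 fold change, 0.35, with overlap between the groups. The lowest were IFNGR2, a chain of the interferon-gamma receptor (-0.50), and STAT2 (-0.36). IRF1, which binds the promoters of immunoproteasome genes, was at 19.9, 17.8 and 32.9 RPM in NPM KD libraries, against 27.4, 20.2 and 35.2 RPM in shSc libraries (log2 fold change -0.05).

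**Figure D5:**
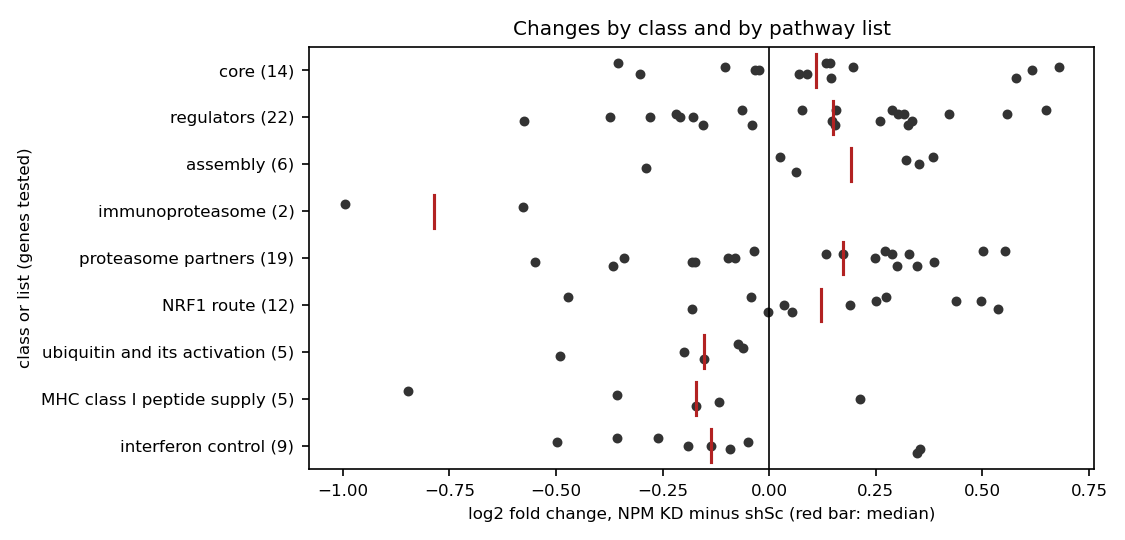
Log2 fold change, NPM KD minus shSc, of each tested gene by class of member and by pathway list, with the number tested in brackets; the red bar is the median. Medians ran between -0.79 for the 2 immunoproteasome genes and 0.19 for the 6 assembly genes, and no gene shown passed the adjusted threshold.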

How the data were processed

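Total RNA of 6 K562 libraries was measured by AmpliSeq. The authors used Torrent Suite 4.4 for base calling and alignment (hg19) and deposited RPM for 20802 genes, which the AmpliSeqRNA plugin made. Its version is not given in the sources used here. A further 10 spike-in rows per library were not used. Whole reads could be recovered for 100% of RPM values, to within 0.1 read, at 8842344 to 18981902 reads per library, and 0 columns stayed unmapped. Chi-square between any 2 libraries was 41.2 to 228 per gene, so no library duplicated another.

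Genes that reached 1 RPM in 2 or more of 5 libraries were tested with limma 3.58.1 (R 4.3.3), with its variance trend and no covariate, on log2(RPM + 0.5), with Benjamini-Hochberg adjustment over 11554 genes at 0.05. The procedure was tested on simulated data. Those counts had the same spread setting for every gene and no replicate structure, a simpler setting than these libraries. That test does not show how the procedure performs on these libraries. Alternatives were all 6 libraries, other pseudocounts (0.1, 1), no filter or 5 RPM, TMM factors, edgeR 4.0.16 and DESeq2 1.42.0 on recovered reads, a replicate block and each library left out. Non-overlap over all 6 libraries was added after seeing the data. The members and lists were chosen with earlier results of these data known. Named were immunoproteasome, constitutive catalytic, activator and untested members, the highest and lowest fold change of each other subclass, and the 2 highest and 2 lowest genes of each list, a few of which are not reported here; PSMB2, PSMD2, PSMD7, PSMD12, PSMD14, PSMG3, PSMG4, B2M and IRF1 were named after their values were seen. Coordinates are from GENCODE release 44 on GRCh37. Figures were drawn with matplotlib 3.10.9.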

Additional observations from a re-analysis of the deposited data

Results flagged for a closer look

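PSMB11 had 30.3 RPM in shSc replicate 3, a library outside the tested comparison, and 0 in the other 5 libraries. It was picked out as a signal in a library that no test used, above the limit of 0.339 RPM that a count of 0 allows there. In the same library B cell markers summed to 81.5 RPM, against 0.252 to 0.633 RPM in NPM KD libraries and 0.399 to 0.986 RPM in shSc replicates 1 and 2. The cause was not tested.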

How the results depend on the processing

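The count of members called was 0 under the other pseudocounts, filters, TMM factors, edgeR, DESeq2, all 6 libraries and each library left out. With all 6 libraries an unadjusted p under 0.05 was reached by 4 members (PSMB10, PSMC2, PSMD6 and PSMD7). The 15 genes called over the whole table became 3 with all 6 libraries, 2 without a filter, 7 with the filter of 5 RPM, 190 with DESeq2 and 0 to 5 with 1 library left out. Non-overlap with all 6 libraries left 2 members and 503 genes lower in NPM KD. The regulator median was -0.0589 to 0.19 with 1 library left out, negative without shSc replicate 2. The assembly median was 0.0620 without a filter, which adds PSMD5, and the immunoproteasome median was -1.13 to -0.44 with 1 library left out. With all 6 libraries PSMB1 was at 0.0812, PSMB6 at 0.0606 and PSME2 at -0.0854. PSMB6 was at 0.0291 with edgeR and 0.0248 with DESeq2. With 1 library left out, PSMB1 was at -0.28 to 0.22, PSMB3 was at -0.0455 to 1.20, PSMB5 was at -0.24 to 1.60, PSMB6 was at -0.20 to 0.26, PSMB7 was at -0.11 to 0.25, PSMG2 was at -0.72 to 0.16, PSME2 was at -0.0904 to 0.39, PSME4 was at -0.36 to 0.51, PSMF1 was at -0.28 to 0.89, PSMC3IP was at -0.78 to 1.95 and PSMD6-AS2 was at -0.21 to 0.71. Of 357 alternative values of 24 named members, 324 kept direction and side of the threshold and 26 changed sign. The causes were not tested. These values are not independent, because a changed filter leaves the fold change itself as it was. The replicate block over 5 libraries repeats the fold changes found without NPM KD replicate 3, and that over 6 libraries those of all 6. The tally is thus no measure of how firm the directions are.

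Replicate numbers were shared by the groups, and the sources do not say that they pair libraries. Deviations of libraries with the same number correlated at 0.43, 0.308 and 0.041 for replicates 1, 2 and 3. NPM KD replicate 1 and shSc replicate 2 correlated at -0.343, and NPM KD replicate 2 and shSc replicate 1 at -0.367. Replicates 1 and 2 thus went with their own number, whereas replicate 3 did not. The main test did not pair the libraries, and whether they were paired was not tested. A replicate block over the 5 libraries leaves NPM KD replicate 3 without a partner. With it 1698 of 11554 genes and 7 of 46 members were called, so the share of members was near that of all genes. The members were PSMA3, PSMB3, PSMB5, PSMC2, PSMD6 and PSMG1, which were higher, and PSMD3, which was lower. In this fit PSMB6 was at 0.26 and PSME4 at -0.0402. With the replicate block over all 6 libraries 0 genes were called (1092 at an unadjusted p under 0.05) and 0 members, PSMB1 was at 0.0812, PSMB6 at 0.0606 and PSME2 at -0.0854. Not every library correlated best with its own number. A count of 3 reads sets the floor of each library, and PSMB8, with 0 to 9 reads, and PSMA8, with 0, were limited by depth.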
